A study of Mus musculus with 24 samples.

Results

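The 8 genes described here encode G protein-coupled receptors that tune insulin secretion: Glp1r, Gipr, Ffar1, Chrm3, Nmbr, Adra2a, Sstr2 and Sstr3. They were chosen by name, with earlier results of these data known. All 8 were found among the 17696 genes of the deposited count table. RNA-seq was performed on 24 libraries of MIN6 cells, a mouse insulinoma line used as a model of the β cell. Each library came from 1 of 3 stable lines, Scr, ZIP or OE, cultured with or without cytokines, which gives 6 groups with 4 libraries each. All lines carried a lentiviral vector, were selected with puromycin and were each grown from a single picked clone. Scr cells carried a scrambled miRZip sequence with copGFP, ZIP cells an antisense sequence to miR-146a-5p in the same backbone, and OE cells a miR-146a-5p expression vector of another backbone with TurboRFP. Cytokine-treated cells, named Scr+Cy, ZIP+Cy and OE+Cy, received 5 ng/mL of IL-1β, 100 ng/mL of IFNγ and 10 ng/mL of TNFα for 24 h. Because a line is also a clone, and in OE another vector backbone, the effect of miR-146a-5p and that of the clone cannot be told apart. The miRNA itself was not measured in these libraries. Nothing in the labels says that the 4 libraries of a group came from independently made lines, so p values measure only the spread between these libraries.

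The β cell releases insulin when glucose closes its potassium channels and calcium enters, and G protein-coupled receptors raise or lower that release. Receptors coupled to Gs, such as those of the incretin hormones GLP-1 and GIP, raise cAMP and so amplify secretion. Receptors coupled to Gq, such as those of fatty acids and acetylcholine, act through phospholipase C, inositol trisphosphate and protein kinase C. Receptors coupled to Gi, such as those of adrenaline and somatostatin, lower cAMP and restrain secretion. miRNAs guide the silencing machinery to transcripts through pairing of their seed, bases 2 to 8, with sites that usually lie in the 3′ UTR.

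The mature sequence of the miRNA that the vectors target or express is shown with its seed in capitals, beside the other mouse miRNA of RefSeq (GRCm38.p6) with the same seed.
mmu-miR-146a-5p: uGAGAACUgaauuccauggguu
mmu-miR-146b-5p: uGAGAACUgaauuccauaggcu
miR-146a-5p lies on the minus strand at chr11:43374435-43374456, and miR-146b-5p on the plus strand at chr19:46342790-46342811.

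A site of 7 bases complementary to the seed was not found in the longest annotated 3′ UTR of any of the 8 genes in GENCODE release M21. Over all 21005 genes with a 3′ UTR, 11.2% held such a site. The members' 3′ UTRs were 311 bases long in Nmbr, 662 in Sstr2, 1307 in Gipr, 1370 in Adra2a, 1743 in Chrm3, 2251 in Sstr3, 3178 in Ffar1 and 4359 in Glp1r, against a median of 961 bases. The shorter match of 6 bases, to bases 2 to 7 of the miRNA, occurred in 29.7% of genes and in 3 members. These windows, from mm10, show that match in capitals with the bases around it.
Gipr, chr7:19156718-19156745, minus strand: tgttttccatgGTTCTCtgttcgttatt
Adra2a, chr19:54048489-54048516, plus strand: acttttcttccGTTCTCccctcctctgg
Chrm3, chr13:9876838-9876865, minus strand: ggttgccatgtGTTCTCcctaggggtcc
Chrm3, chr13:9875787-9875814, minus strand: aagtgcaccatGTTCTCtctgggggagg
Chrm3, chr13:9875546-9875573, minus strand: tcagtgggtgtGTTCTCagtggtgtgtc
The Gipr window and the last 2 Chrm3 windows lie outside the spans that were counted for these genes. Only the last Chrm3 window has an A directly after the match, opposite base 1 of the miRNA. The search for 7 bases and its share of 11.2% covered bases 2 to 8 only and did not count this form. A match is a description of letters and not a measured site.

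Between 26657792 and 37168232 reads were assigned to genes in a library, with a median of 30701023. Levels are given as CPM, the reads of a gene scaled to a common library size after TMM correction, as the mean ± SD of 4 libraries, and 3 reads, the limit of detection used here, corresponded to 0.0809 to 0.115 CPM. Of 14 β cell identity genes, 1 averaged under 1 CPM outside OE and OE+Cy: Ucn3, a marker of mature β cells. Ucn3 was at 0.197 CPM in Scr and 19.6 in OE. The list summed to 19640 to 26140 CPM in Scr, 29330 to 31950 in ZIP and 41030 to 44660 in OE. Its genes did not move together. Ins1 averaged 674 CPM in Scr and 7673 in OE, Ins2 10930 and 18880, and Slc30a8 21.9 and 382. Pdx1 averaged 824 CPM in Scr and 627 in OE, Mafa 1050 and 716, and G6pc2 3184 and 1895. Markers of other pancreatic cells also differed between the lines, and their part in the results was not tested. The alpha cell list, with 5 of its 6 genes in the table, summed to 1528 to 1981 CPM in Scr, 3809 to 4760 in ZIP and 602 to 1156 in OE, most of it Ttr and Gcg, with Irx2 at 0 in Scr. The delta and PP cell list, with 4 of its 5 genes in the table, summed to 9.11 to 12.5 CPM in OE and 0.0938 to 0.403 in Scr, where Ppy and Pyy were at 0. The duct and acinar list, with 3 of its 6 genes in the table, summed to 12.45 to 17.4 CPM in OE, nearly all of it Krt19, which was at 0 in Scr and ZIP. Replicate 1 of Scr, ZIP and Scr+Cy held 12.8 to 40.2 CPM of 5 stroma and endothelium markers, against 0.605 to 5.4 CPM in the other 21 libraries.

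Of these receptors, 6 were expressed well above the limit of detection in all groups, Nmbr was expressed in OE cells and barely elsewhere, and Sstr2 was at the limit in 4 of 6 groups. Per kilobase of annotated exon within the counted span, Adra2a had the highest level in Scr, at 113.7 ± 9.58 CPM per kilobase, followed by Glp1r at 75.6 ± 6.45 and Ffar1 at 49.45 ± 7.14. Sstr3 stood at 28.85 ± 3.14, Chrm3 at 14.1 ± 0.328 and Gipr at 7.07 ± 1.27 CPM per kilobase. Nmbr and Sstr2 reached 0.0807 ± 0.0697 and 0.0105 ± 0.0139 CPM per kilobase. Libraries of genes next to each other in this order did not overlap from Adra2a to Gipr. The order depended on gene length: over the longest annotated transcript, Sstr3 at 26.8 CPM per kilobase stood above Glp1r at 19.2 and Ffar1 at 10.7. In bulk RNA, fewer cells with a transcript and less transcript per cell cannot be told apart.

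**Figure D1:**
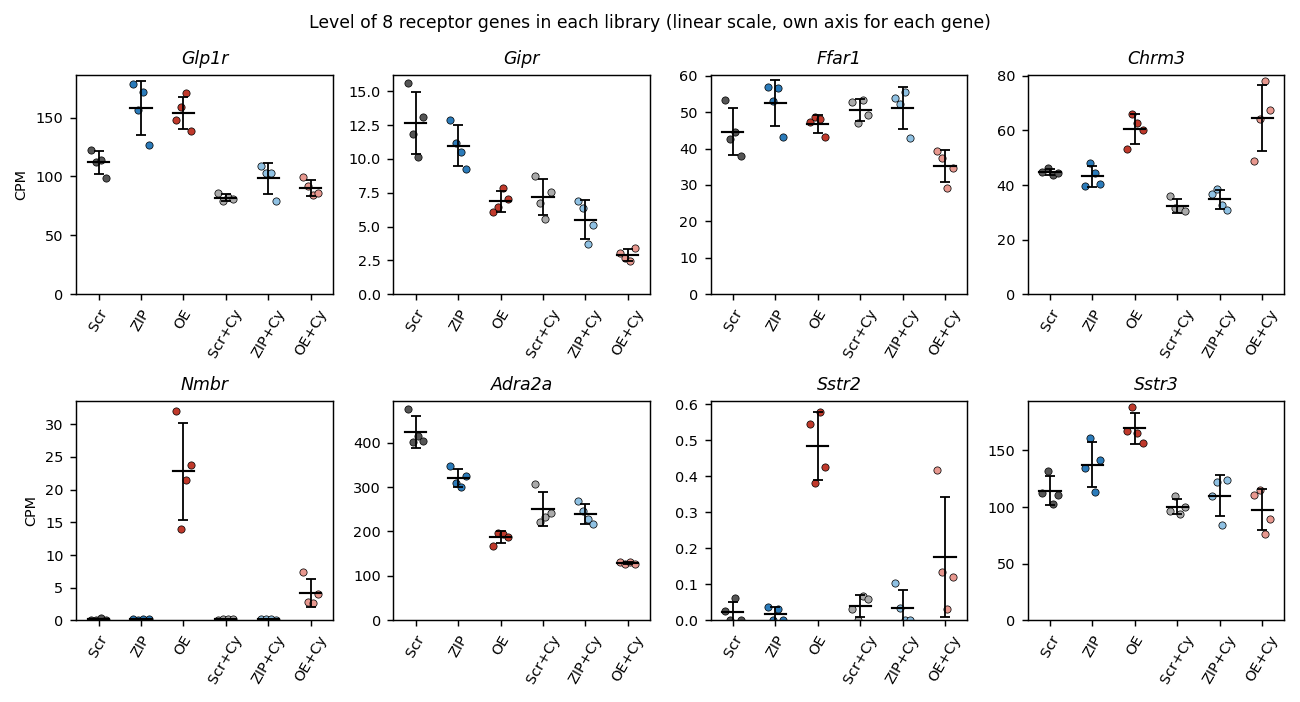
CPM of each receptor gene in each of the 24 libraries, by group, on a linear axis that starts at 0 and differs between genes. Points are libraries, and black bars the mean and SD of 4 libraries. Nmbr is seen only in OE and OE+Cy at this scale, and Adra2a and Gipr are lowest in OE+Cy.

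Glp1r, the receptor of the incretin GLP-1, was higher in both modified lines than in Scr by less than the 1.5-fold limit used for a call, and lower after cytokines in every line. The gene lies on chromosome 17 of mm10 (30901867 to 30936510, plus strand, 13 exons). The counted span holds 1480 annotated exon bases, while the longest annotated transcript has 5811, so most of that transcript lies outside the span. The Glp1r level was 122, 112, 114 and 99.0 CPM in the Scr libraries, replicates 1 to 4. ZIP libraries held 178, 156.5, 172 and 126 CPM, and OE libraries 148, 159, 171 and 138.5 CPM. All ZIP and all OE libraries were above all Scr libraries, and ZIP and OE overlapped. The difference was tested with edgeR's quasi-likelihood model over all 24 libraries and all genes, with Benjamini-Hochberg adjusted p values, and a gene was called where its fold change was at least 1.5 and its p value under 0.05. On this basis Glp1r was 1.41-fold higher in ZIP (log2 0.50, standard error 0.0979, adjusted p = 0.000335) and 1.38-fold higher in OE (log2 0.46, standard error 0.0978, adjusted p = 0.000356), and neither was called. One library bears on the first value, since without ZIP replicate 4 the log2 difference was 0.59 and was called. ZIP and OE differed by −0.04 (95% interval −0.24 to 0.16).

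After cytokines the Glp1r level was 79.1 to 85.6 CPM in Scr+Cy, 79.3 to 108.7 CPM in ZIP+Cy and 84.0 to 99.2 CPM in OE+Cy. Each treated group lay below every untreated library of its own line. Glp1r fell 1.61-fold in ZIP (log2 −0.69, standard error 0.0985, adjusted p = 8.61e-06) and 1.71-fold in OE (log2 −0.77, standard error 0.0985, adjusted p = 6.67e-07). In Scr the difference was −0.45 (adjusted p = 0.00191), a 1.36-fold lower level that was not called. The response of OE minus that of Scr was −0.32 (95% interval −0.61 to −0.04, adjusted p = 0.107), and that of ZIP minus Scr −0.24 (−0.53 to 0.05, adjusted p = 0.845). With the replicate number as a block, the value for OE was −0.33 and passed (adjusted p = 0.0137). Among treated groups no difference was called: ZIP+Cy stood 0.26 above Scr+Cy on the log2 scale (adjusted p = 0.0507) and OE+Cy 0.14 above it (adjusted p = 0.255). With the replicate block these values were 0.25 (adjusted p = 0.00629) and 0.13 (adjusted p = 0.0977), both under the fold limit.

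Gipr, the receptor of the incretin GIP, fell in OE cells and after cytokines in every line, and the lowest levels of all were those of OE+Cy. It is encoded on chromosome 7 (19157125 to 19166127, minus strand, 14 exons). Scr libraries held 15.6, 11.9, 10.2 and 13.1 CPM, and ZIP libraries 12.9, 11.2, 10.5 and 9.24 CPM. OE libraries held 6.08, 6.48, 7.86 and 7.01 CPM, all below every Scr and ZIP library. The means were 12.7 ± 2.28 CPM in Scr, 10.96 ± 1.51 in ZIP and 6.86 ± 0.773 in OE. Gipr was 1.85-fold lower in OE than in Scr (log2 fold change −0.89, standard error 0.165, adjusted p = 7.84e-05) and 1.60-fold lower than in ZIP (adjusted p = 0.00139). ZIP did not differ detectably from Scr (log2 −0.21, 95% interval −0.55 to 0.12, adjusted p = 0.365).

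With cytokines, Gipr stood at 8.78, 6.75, 5.59 and 7.57 CPM in Scr+Cy and at 6.88, 6.40, 3.68 and 5.09 CPM in ZIP+Cy. OE+Cy libraries held 3.02, 2.64, 2.43 and 3.43 CPM, below all libraries of the 5 other groups. The fall after cytokines was 1.77-fold in Scr (log2 −0.82, adjusted p = 0.000761), 1.98-fold in ZIP (log2 −0.99, adjusted p = 9.52e-05) and 2.38-fold in OE (log2 −1.25, adjusted p = 4.01e-06). These responses could not be told apart, with ZIP minus Scr at −0.17 (95% interval −0.66 to 0.32) and OE minus Scr at −0.43 (−0.93 to 0.08, adjusted p = 0.24). OE+Cy was 2.49-fold lower than Scr+Cy (adjusted p = 1.4e-06) and 4.39-fold lower than untreated Scr (adjusted p = 2.37e-10). The incretin receptors thus stood in opposite directions in OE against Scr, Gipr called lower and Glp1r higher without a call.

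Ffar1, also known as GPR40, responds to long-chain fatty acids through Gq and differed in its cytokine response between OE and Scr. The counted model on chromosome 7 (30860568 to 30861470, minus strand) spans 903 bases, while GENCODE gives a transcript of 4175 bases, so most of the annotated transcript lies outside the counted span. Its level was 53.4, 42.8, 44.5 and 37.9 CPM in Scr, 56.9, 53.0, 56.8 and 43.3 CPM in ZIP, and 47.3, 48.6, 48.1 and 43.1 CPM in OE. Untreated groups overlapped, with log2 differences from Scr of 0.23 in ZIP (adjusted p = 0.0988) and 0.07 in OE (adjusted p = 0.624). Treated libraries held 46.9 to 53.3 CPM in Scr+Cy, 42.8 to 55.7 CPM in ZIP+Cy and 29.3 to 39.3 CPM in OE+Cy. OE+Cy lay below every library of Scr+Cy, ZIP+Cy and OE.

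After cytokines, Ffar1 differed by 0.18 in Scr (95% interval −0.03 to 0.39), by −0.04 in ZIP (−0.25 to 0.18) and by −0.41 in OE (−0.63 to −0.20, adjusted p = 0.00214). None of these was called, the last being 1.33-fold. The response in OE was lower than that in Scr by 0.59 on the log2 scale (standard error 0.147, adjusted p = 0.00557), which passed the adjusted p of 0.05 used for such differences between responses. OE+Cy stood 1.44-fold below Scr+Cy (adjusted p = 0.000161) and 1.46-fold below ZIP+Cy (adjusted p = 0.00011), both under the limit of 1.5. The second of these was called without ZIP+Cy replicate 4 (log2 −0.62) or without OE+Cy replicate 1 (log2 −0.60).

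Chrm3, the M3 muscarinic receptor through which acetylcholine acts on β cells, stood lower after cytokines in Scr and ZIP, without a call, and was called higher in OE+Cy than in the other treated lines. The gene spans 484191 bases of chromosome 13 (9876613 to 10360803, minus strand). Scr libraries held 44.8, 46.1, 43.6 and 44.4 CPM, and ZIP libraries 39.7, 48.1, 44.6 and 40.2 CPM. OE libraries held 53.1, 66.2, 62.7 and 60.3 CPM, above every Scr and ZIP library. This was a 1.35-fold difference from Scr (log2 0.44, standard error 0.102, adjusted p = 0.000949), under the fold limit, and ZIP and Scr overlapped (log2 −0.05, 95% interval −0.27 to 0.16).

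Under cytokines, Chrm3 stood at 35.9, 31.5, 31.1 and 30.5 CPM in Scr+Cy and at 36.7, 38.6, 32.7 and 31.0 CPM in ZIP+Cy. In OE+Cy the libraries spread more, at 48.75, 64.35, 78.1 and 67.6 CPM, and overlapped with OE. Chrm3 was thus 2.01-fold higher in OE+Cy than in Scr+Cy (log2 1.00, standard error 0.104, adjusted p = 1.57e-08) and 1.86-fold higher than in ZIP+Cy (adjusted p = 9.29e-08). Within lines, the difference after cytokines was −0.47 in Scr (adjusted p = 0.00193), −0.31 in ZIP (adjusted p = 0.0292) and 0.10 in OE (95% interval −0.11 to 0.31), none past the fold limit. The response in OE was higher than that in Scr by 0.57 (standard error 0.146, adjusted p = 0.00716). Against untreated Scr, OE+Cy was 1.45-fold higher and was not called, although without OE+Cy replicate 1 it was (log2 0.65).

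Nmbr, the Gq-coupled receptor of neuromedin B, was read in OE cells and was close to the limit of detection in the other lines. It lies on chromosome 10 (14759947 to 14771458, plus strand, 3 exons). Untreated libraries held 5, 3, 10 and 1 reads in Scr and 4, 3, 7 and 8 reads in ZIP. OE libraries held 1058, 513, 777 and 725 reads, or 32.0, 13.96, 21.4 and 23.7 CPM. No library of another line, treated or not, exceeded 10 reads. Nmbr was 158-fold higher in OE than in Scr (log2 7.31, standard error 0.404, adjusted p = 2.13e-13) and 119-fold higher than in ZIP (adjusted p = 3.86e-13). The size of these ratios rests on few reads in Scr and ZIP, and the 95% interval against Scr ran from 6.47 to 8.14 on the log2 scale.

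Cytokines lowered Nmbr in OE cells, where OE+Cy libraries held 211, 83, 85 and 135 reads. In CPM these were 7.33, 2.81, 2.68 and 4.10, all below every OE library and above every library of Scr+Cy and ZIP+Cy, which held 3 to 7 reads. The fall was 5.39-fold (log2 −2.43, standard error 0.272, adjusted p = 9.42e-08), and Nmbr remained 26.8-fold above Scr+Cy (adjusted p = 1.41e-09). The response in OE was lower than that in Scr by 2.56 (standard error 0.791, adjusted p = 0.0236). With at most 10 reads in any Scr library that difference was imprecise (95% interval −4.20 to −0.93), and it was no longer called without Scr+Cy replicate 2 (log2 −2.51), replicate 3 (−2.51) or replicate 4 (−2.57), or without the 3 libraries with stroma markers (−2.64, adjusted p = 0.0921). An antisense gene, B230364G03Rik, shares 138 exon bases with Nmbr, and the sources used here do not say whether strand was used in counting, so reads within those bases, of 1749 exon bases of Nmbr, cannot be told apart. The level of Nmb, the gene of the ligand neuromedin B, was 0.747 ± 0.199 CPM in OE and 0.182 ± 0.0617 in Scr.

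The promoters of Nmbr and Sstr2, both read mainly in OE cells, and of Adra2a, lower in OE, are printed from RefSeq (GRCm38.p6) from 250 bases before to 50 after the start, with any motif of the search in capitals.
Nmbr, chr10:14759697-14759996, plus strand: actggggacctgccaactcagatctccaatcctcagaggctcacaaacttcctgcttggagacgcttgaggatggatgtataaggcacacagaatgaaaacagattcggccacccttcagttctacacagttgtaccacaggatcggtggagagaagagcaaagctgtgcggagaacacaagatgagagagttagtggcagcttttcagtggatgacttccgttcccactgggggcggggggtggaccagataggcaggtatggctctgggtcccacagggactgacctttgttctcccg
Sstr2, chr11:113619077-113619376, plus strand: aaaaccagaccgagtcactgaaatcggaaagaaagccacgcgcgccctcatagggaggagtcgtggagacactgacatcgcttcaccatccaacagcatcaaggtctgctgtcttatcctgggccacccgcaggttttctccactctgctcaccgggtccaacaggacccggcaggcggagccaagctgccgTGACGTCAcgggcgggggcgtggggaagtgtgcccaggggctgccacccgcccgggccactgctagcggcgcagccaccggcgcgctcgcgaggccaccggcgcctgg
Adra2a, chr19:54045009-54045308, plus strand: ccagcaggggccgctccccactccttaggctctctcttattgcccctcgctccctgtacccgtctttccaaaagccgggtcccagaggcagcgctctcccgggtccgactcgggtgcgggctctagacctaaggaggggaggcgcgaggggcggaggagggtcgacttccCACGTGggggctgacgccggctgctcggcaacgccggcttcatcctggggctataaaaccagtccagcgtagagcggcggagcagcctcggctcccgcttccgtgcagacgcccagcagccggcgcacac

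The search covered both strands for the cAMP response element TGACGTCA, the interferon-γ activated site TTCNNNGAA, the core of the interferon-stimulated response element, the NF-κB site and the E-box CACGTG. The 7 members found in the table had 8 promoters, Sstr3 having 2. The cAMP response element stood in 1 of them, that of Sstr2, and in 1.79% of all 32851 promoters. The E-box stood in the promoter of Adra2a and in 1 of Sstr3, and in 7.15% of all promoters. The other 3 motifs, held by 1.63% to 8.3% of all promoters, were in none of the 8, which says only that these letters are not in these windows. The windows of Adra2a and Sstr2 held 28 and 27 CG pairs and that of Nmbr 7, against a median of 7.

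Adra2a, the α2A-adrenergic receptor through which adrenaline restrains insulin release, fell both in OE cells and after cytokines in Scr cells. In Scr it had the highest level of these receptors per kilobase. Glp1r stood above it in ZIP (106.9 against 85.9 CPM per kilobase) and in OE (104 against 50.1). This order depended on the length used. Over the longest annotated transcript, Adra2a stood above Glp1r in ZIP (66.2 against 27.2 CPM per kilobase) and in OE (38.6 against 26.5). Adra2a is a gene of 1 exon on chromosome 19 (54045259 to 54048982, plus strand). Scr libraries held 476, 400.5, 414 and 403 CPM. ZIP libraries held 346.5, 309, 299 and 326 CPM, and OE libraries 167, 196, 195 and 188 CPM. The 3 untreated groups did not overlap, and the order Scr, ZIP, OE was the same in all libraries. Adra2a was 2.27-fold lower in OE than in Scr (log2 −1.18, standard error 0.0868, adjusted p = 3.97e-11) and 1.72-fold lower than in ZIP (adjusted p = 4.58e-08). In ZIP it was 1.32-fold lower than in Scr (log2 −0.40, standard error 0.0857, adjusted p = 0.00077) and was not called.

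Genes around Adra2a were lower in both modified lines as well. Of 28 genes within 5 Mb on either side with a mean of at least 1 CPM, 26 were lower in ZIP than in Scr and 24 were lower in OE, with median log2 differences of −0.41 and −0.44. The lower levels were not limited to these neighbours. In steps of 10 Mb, the medians from 30 Mb before Adra2a to the last genes after it lay between −0.49 and −0.38 in ZIP and between −0.55 and −0.32 in OE, over 42, 75, 74 and 29 genes. Farther than 30 Mb before it, the medians of steps with 15, 197 and 26 genes lay between −0.02 and 0.08 in ZIP and between 0.08 and 0.18 in OE. Adra2a stood 0.01 above the median of its neighbours in ZIP and 0.74 below it in OE. Between OE and ZIP the neighbours' median was −0.02 and that of Adra2a −0.78. After cytokines in Scr the neighbours' median was 0.00, with 14 of 28 lower, while Adra2a was lower by 0.76. For the 7 other receptors the median of the genes within 5 Mb lay between −0.07 and 0.03 in ZIP and between −0.10 and 0.13 in OE. Whether a change in copy number of this stretch of chromosome 19 takes part in the Adra2a level was not tested.

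**Figure D2:**
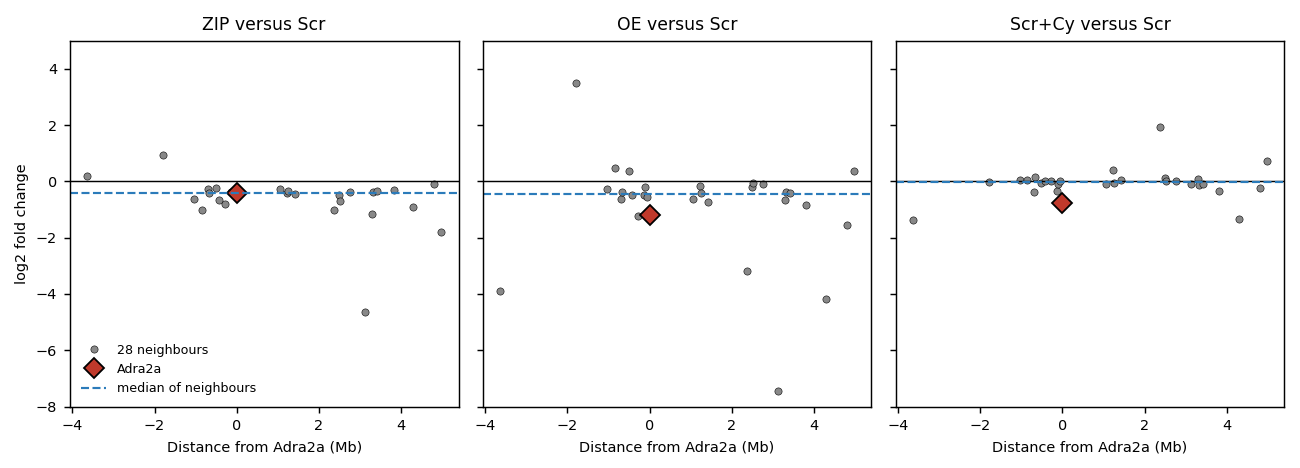
Log2 fold change of Adra2a (red diamond) and of the 28 genes within 5 Mb of it (grey points) by distance in Mb, for ZIP versus Scr, OE versus Scr and Scr+Cy versus Scr. The dashed line is the neighbours' median, −0.41, −0.44 and 0.00. Adra2a lies on that line in ZIP and below it in OE and after cytokines.

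With cytokines, Adra2a stood at 306, 220, 233 and 242 CPM in Scr+Cy, 269, 246.5, 228 and 218 CPM in ZIP+Cy and 132, 126.5, 132 and 127 CPM in OE+Cy. Each treated group lay below its own untreated group, and OE+Cy below all other libraries. The fall in Scr was 1.69-fold (log2 −0.76, standard error 0.0861, adjusted p = 3.07e-07). Differences of 1.33-fold in ZIP (log2 −0.41, adjusted p = 0.00075) and 1.44-fold in OE (log2 −0.53, adjusted p = 2.04e-05) were under the fold limit. The responses of ZIP and OE were smaller than that of Scr by 0.34 (95% interval 0.09 to 0.59, adjusted p = 0.61) and 0.23 (−0.02 to 0.48, adjusted p = 0.203), neither past the test. The value for OE passed without Scr+Cy replicate 1 (0.34) and without the 3 libraries with stroma markers (0.28, adjusted p = 0.0475). OE+Cy was 1.94-fold below Scr+Cy (adjusted p = 1.77e-09), while ZIP+Cy and Scr+Cy overlapped (log2 −0.06, 95% interval −0.24 to 0.12).

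Sstr2, a Gi-coupled receptor of somatostatin, was at the limit of detection in Scr, ZIP, Scr+Cy and ZIP+Cy. Its gene has 2 exons on chromosome 11 (113619327 to 113626018, plus strand). The 4 libraries held 1, 0, 2 and 0 reads in Scr, 1, 0, 1 and 0 in ZIP, 1, 0, 2 and 2 in Scr+Cy, and 3, 1, 0 and 0 in ZIP+Cy. OE libraries held 18, 14, 21 and 13 reads, a mean of 0.4825 ± 0.0944 CPM. Every OE library thus exceeded every Scr and ZIP library, at a level far below that of Sstr3. Against the 3 reads per library taken as the limit, Sstr2 was at least 5.45-fold higher in OE than in Scr (adjusted p = 0.000253) and at least 4.67-fold higher than in ZIP (adjusted p = 0.000214). OE+Cy libraries held 12, 4, 1 and 4 reads and overlapped with OE and with both other treated groups. Sstr2 was called lower in OE+Cy than in OE (log2 −1.45, adjusted p = 0.0933), but in 7 of 8 fits that left out 1 library of these groups, all except the fit without OE+Cy replicate 1 (−2.28), the call was lost, with values from −1.54 to −1.11. OE+Cy was called higher than Scr+Cy (adjusted p = 0.0521), its mean being 1.82-fold the limit, with a log2 95% interval from 0.24 to 3.79. This call was lost without Scr+Cy replicate 1 (log2 1.91) or 2 (1.65), or OE+Cy replicate 1 (1.18). Against ZIP+Cy, OE+Cy was called higher (adjusted p = 0.0405), its mean being 1.68-fold the limit, with an interval from 0.36 to 4.04. That call was lost without ZIP+Cy replicate 3 (1.85) or 4 (1.80) or OE+Cy replicate 1 (1.36). Against untreated Scr, OE+Cy was called higher (adjusted p = 0.0119), its mean being 1.99-fold the limit, with an interval from 0.88 to 4.67. Without OE+Cy replicate 1 this last call was lost (1.94). Differences among the 4 groups at the limit are not given.

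Sstr3, the other somatostatin receptor among the members, was read at a high level in all groups and fell after cytokines in OE cells. It lies on chromosome 15 (78537015 to 78544345, minus strand, 3 exons) and was the only member whose estimated counts were not whole numbers. Scr libraries held 112.5, 132, 103 and 111 CPM, ZIP libraries 134, 161, 113 and 141.5 CPM, and OE libraries 167, 188, 166 and 157 CPM. All OE libraries were above all Scr libraries, and ZIP overlapped with both. In OE the level was 1.48-fold that in Scr (log2 0.56, standard error 0.125, adjusted p = 0.000555), just under the fold limit, and was called without Scr replicate 2 (0.64) or OE replicate 4 (0.60). ZIP differed from Scr by 0.26 (95% interval 0.0022 to 0.52, adjusted p = 0.128).

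With cytokines, Sstr3 stood at 94.3 to 109.5 CPM in Scr+Cy, 84.4 to 124 CPM in ZIP+Cy and 76.1 to 115 CPM in OE+Cy. The treated groups overlapped with each other, and OE+Cy alone lay wholly below the untreated libraries of its line. The fall in OE was 1.73-fold (log2 −0.79, standard error 0.126, adjusted p = 1.38e-05), against −0.19 in Scr (95% interval −0.45 to 0.07) and −0.32 in ZIP (adjusted p = 0.0654). The response in OE was lower than that in Scr by 0.60 (standard error 0.177, adjusted p = 0.0181), and without OE replicate 2 this difference, −0.52, was no longer called. OE+Cy and Scr+Cy differed by −0.04 (95% interval −0.30 to 0.22). Sst, the gene of the ligand somatostatin, was at 1.34 ± 0.552 CPM in OE and 0.0828 ± 0.0702 in Scr.

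Read across the receptors, the OE line differed from Scr more than the ZIP line did in the number of calls. In ZIP versus Scr, 0 of 8 members were called, where 14.9% of all genes were, with 2 members (Glp1r and Adra2a) at an adjusted p under 0.05 and, besides those, Ffar1 and Sstr3 at an unadjusted p under 0.05. With the replicate block, Ffar1 and Sstr3 also had an adjusted p under 0.05 (0.0251 and 0.0128), without a call. DESeq2 also called 0 members in this comparison. In OE versus Scr, 4 were called (25.7% of all genes), Nmbr and Sstr2 higher and Gipr and Adra2a lower. The median log2 difference of the 7 members other than Sstr2 was 0.23 in ZIP and 0.44 in OE, against 0.00 over all genes in both. With Sstr2, which was at the limit in Scr and ZIP, these medians were 0.09 and 0.45. Against ZIP, OE differed in the same 4 members (27.3% of all genes), in the same directions. With cytokines, 0 members were called between ZIP+Cy and Scr+Cy (15.8% of all genes, and 0 members by DESeq2), where Glp1r and Gipr had an unadjusted p under 0.05. With the replicate block, Glp1r had an adjusted p under 0.05 there (0.00629), without a call. Between OE+Cy and Scr+Cy, 5 were called (28.5% of all genes), Chrm3, Nmbr and Sstr2 higher and Gipr and Adra2a lower, and the same 5 differed from ZIP+Cy (29% of all genes). Because these comparisons share control libraries, their lists are not independent of each other. The members were chosen with earlier results of these data known, so these shares and medians are a description and not a test.

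**Figure D3:**
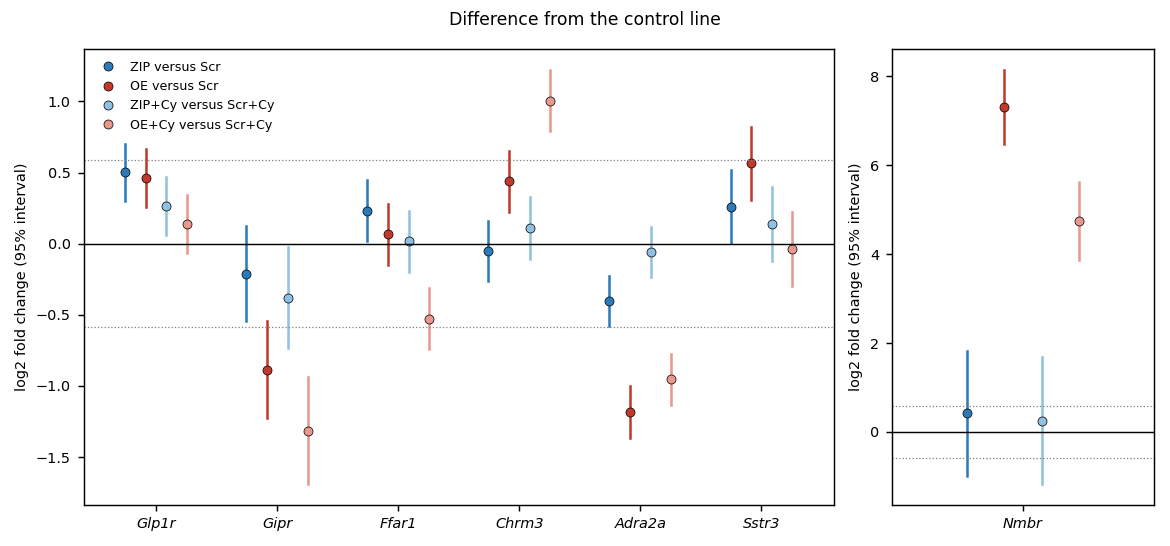
Log2 fold change against the control line, with 95% intervals, for 7 receptors in ZIP versus Scr, OE versus Scr, ZIP+Cy versus Scr+Cy and OE+Cy versus Scr+Cy. Nmbr has its own axis, Sstr2 is left out because it was at the limit in the controls, and dotted lines mark a fold of 1.5. Gipr, Adra2a and Nmbr differ past those lines in OE with and without cytokines.

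Cytokines lowered members and raised none. The members were chosen with earlier results of these data known, so the shares and medians here are a description and not a test. In Scr+Cy versus Scr, 2 of 8 were called, Gipr and Adra2a, both lower. Over all genes, 10.6% were called there and 2.67% were called lower. In ZIP+Cy versus ZIP, Glp1r and Gipr were called lower (12.5% of all genes, 5.21% lower). In OE+Cy versus OE, 5 were called lower (21% of all genes, 8.02% lower): Glp1r, Gipr, Nmbr, Sstr2 and Sstr3, with the limit on Sstr2 given above. The median of the 7 members other than Sstr2 was −0.45 in Scr, −0.32 in ZIP and −0.77 in OE, against 0.00, −0.01 and 0.02 over all genes. Against untreated Scr, ZIP+Cy had Gipr and Adra2a called lower (21.7% of all genes called) and OE+Cy had Nmbr and Sstr2 higher and Gipr and Adra2a lower (34.2%). The response to cytokines differed between OE and Scr in 4 members, Ffar1, Chrm3, Nmbr and Sstr3 (20% of all genes), and between ZIP and Scr in 0 (0.0565% of all genes, and 0 by DESeq2), where Adra2a alone had an unadjusted p under 0.05 (0.00929).

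**Figure D4:**
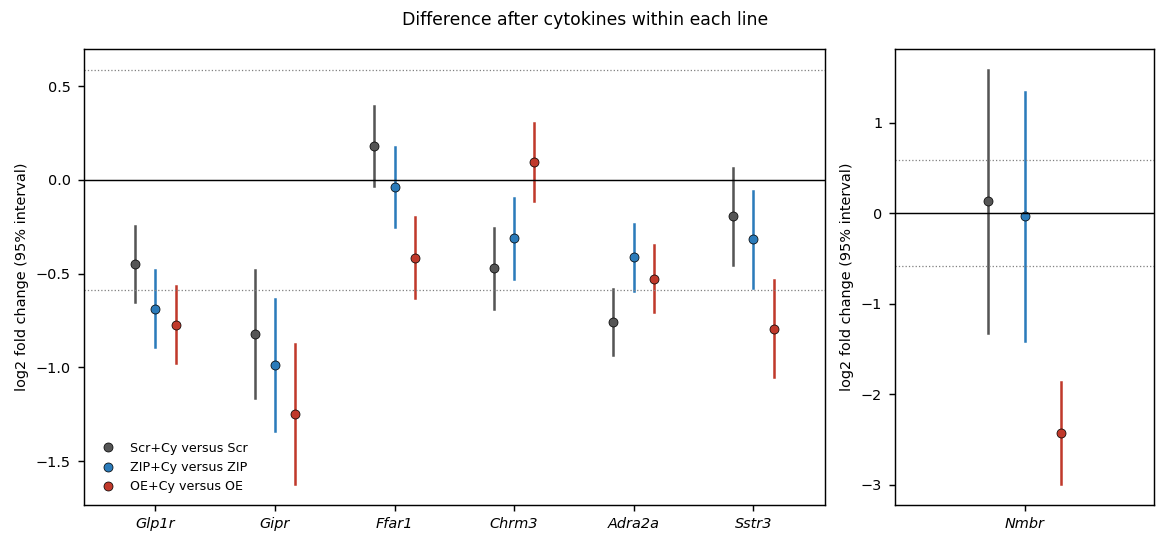
Log2 fold change after cytokines within Scr, ZIP and OE, with 95% intervals, for 7 receptors. Nmbr has its own axis and dotted lines mark a fold of 1.5. The change after cytokines in OE is lower than that in Scr for Ffar1, Sstr3 and Nmbr, and higher for Chrm3.

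The genes through which the receptors act were taken as 7 lists with 196 genes in the table. Of these, 47 (24%) were called in ZIP versus Scr, 91 (46.4%) in OE versus Scr, 21 (10.7%) in Scr+Cy versus Scr and 67 (34.2%) in OE+Cy versus OE, against 14.9%, 25.7%, 10.6% and 21% of all genes. The share after cytokines in Scr was close to that of all genes. These lists, too, were chosen with earlier results of these data known. Among 57 other receptors described in islets, 12 rose and 10 fell in ZIP (38.6% called), and 19 rose and 13 fell in OE (56.1%). Gpr119, a Gs-coupled lipid receptor, was at 0 in Scr and 5.36 ± 0.872 CPM in OE, at least 60.5-fold higher. Cckbr, a Gq-coupled receptor of cholecystokinin and gastrin, was higher in both modified lines. It stood at 0.133 ± 0.0214 CPM in Scr, 1.58 ± 0.81 in ZIP and 54.8 ± 12.9 in OE. The Gi-coupled dopamine receptor Drd2 was 24.9-fold lower in OE. Of 14 ligand genes, 8 rose and 3 fell in OE (78.6%). Gcg, the source of GLP-1 and glucagon, fell from 288 ± 55.5 to 41.4 ± 2.51 CPM, and Ppy was at least 100.5-fold higher.

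Among 27 G protein subunits, 1 rose and 1 fell in ZIP (7.41% called, under the 14.9% of all genes) and 5 rose and 5 fell in OE (37%, against 25.7%). Gnas, which encodes the Gs subunit, averaged 951 ± 54.7 CPM in Scr and 1489 ± 122 in OE, and Gnaq 176 ± 0.878 and 178 ± 7.26 CPM. Gnai1 fell 4.10-fold in OE, while Gnai2 stood at 201 ± 20.7 CPM in Scr and 177 ± 10.3 in OE and Gnai3 at 264 ± 20.9 and 233 ± 7.69. Among 24 genes of cAMP synthesis and breakdown, 1 rose and 10 fell in OE (45.8%): the adenylyl cyclase gene Adcy1 rose 1.66-fold and Adcy7 fell 16.2-fold. In ZIP, Adcy1 rose 2.69-fold and Adcy7 fell 4.87-fold, and after cytokines Adcy1 fell 1.77-fold in Scr and 1.55-fold in ZIP and rose 1.51-fold in OE. The effector lists were called at about the 25.7% of all genes in OE. Of 24 cAMP effectors, 4 rose and 2 fell (25%), where Prkaca, a catalytic subunit of protein kinase A, fell 1.82-fold. Of 24 Gq effectors, 3 rose and 4 fell (29.2%), with the inositol trisphosphate receptor Itpr3 12.6-fold higher and the protein kinase C gene Prkcb 3.93-fold lower. In the list of receptor desensitization and RGS proteins, 5 of 26 rose and 4 fell in ZIP (34.6%) and 6 rose and 8 fell in OE (53.8%). Arrb1, which encodes β-arrestin 1, fell 3.15-fold in ZIP and 7.93-fold in OE, and Rgs16 rose 8.01-fold after cytokines in Scr.

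**Figure D5:**
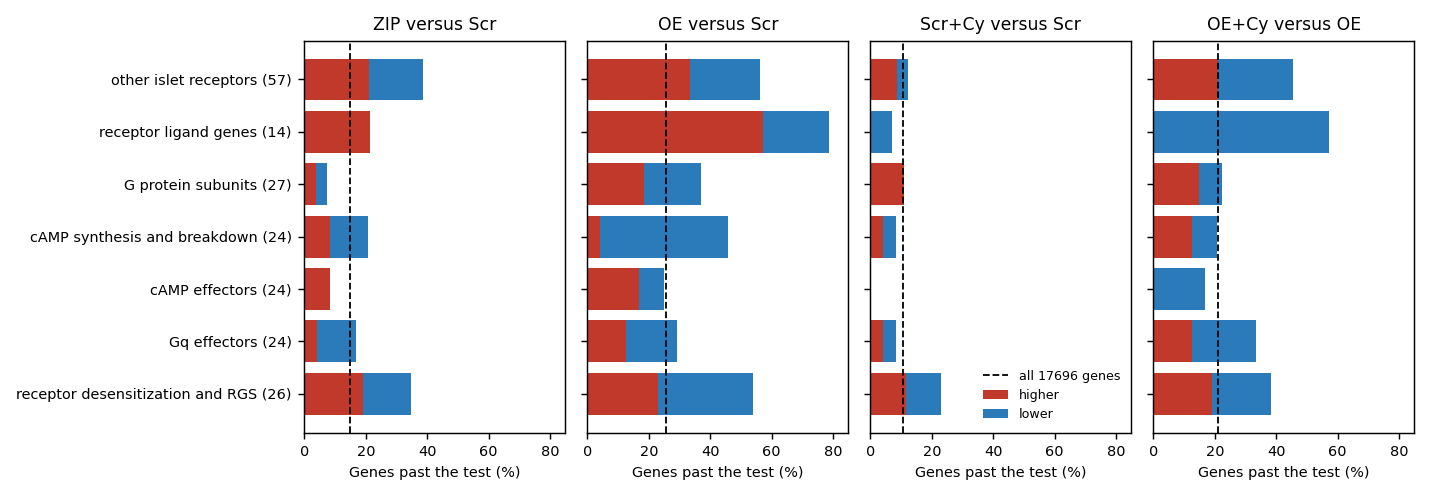
Share of each list's genes called higher (red) and lower (blue), with the number of genes in brackets, in 4 comparisons. The dashed line is the share called over all 17696 genes, 14.9%, 25.7%, 10.6% and 21%. In OE versus Scr the ligand genes reach 78.6% and the other islet receptors 56.1%.

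Genes whose pattern was most like that of each member were sought over the 24 libraries among 9738 genes with at least 10 CPM on average, by Pearson's r of log2 CPM, as a description. The highest were Fhdc1 for Glp1r (r = 0.93), Slc27a4 for Gipr (r = 0.97), Arhgef17 for Ffar1 (r = 0.82) and Zbtb44 for Chrm3 (r = 0.94). For Nmbr, Adra2a and Sstr3 they were Grb14 (r = 0.98), Pfkm (r = 0.96) and Sar1a (r = 0.95). Sstr2, with a mean under 1 CPM, was not compared. The libraries share their group means, which set much of these values, and with Spearman's rho the highest gene was the same for Glp1r and differed for the other 6. Among the 7 members other than Sstr2, Gipr and Adra2a were most alike, at r = 0.91, followed by Chrm3 and Nmbr at 0.74 and Glp1r and Sstr3 at 0.73.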

How the data were processed

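Total RNA of 24 MIN6 samples was prepared as mRNA libraries and sequenced as paired ends. The authors aligned reads with STAR to mm10 and quantified them in Partek Flow. The submitters' processing notes give versions 2.7.8a and 11.0.24.0204, and the study's methods name other versions of both, so which ones made the table is not settled here. The deposited table holds estimated counts per gene, of which 30.3% were not whole numbers, and every gene had a total of at least 10. A second deposited table, of normalised values as a normalised signal, was not used. Estimated counts were rounded and fitted with edgeR 4.0.16 (R 4.3.3), with TMM scaling, quasi-likelihood tests and 6 group means over all 24 libraries. In comparisons of groups, a gene was called when it differed 1.5-fold or more with an unadjusted p below 0.05, the rule of the study's methods, and differences between cytokine responses at a Benjamini-Hochberg adjusted p under 0.05. DESeq2 1.42.0, another scaling, a low-count filter, fits of the compared groups alone, a replicate block, the adjusted p and omission of each library were the alternatives. The script was tested on simulated data with known changes.

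The 8 members, the pathway and marker lists and the tests were chosen with earlier results of these data known. Named pathway genes were up to 2 per list and direction with the largest fold change, where the adjusted p was under 0.05, 1 of the groups averaged 1 CPM or more and libraries did not overlap. Same-numbered libraries share a replicate number in the labels, which do not say what it marks. Their deviations from the group means were correlated above 0.1 in every pair for ZIP versus Scr, Scr+Cy versus Scr, ZIP+Cy versus ZIP, OE+Cy versus OE, ZIP+Cy versus Scr+Cy and OE versus ZIP, and not for the 5 other comparisons. No libraries were identical. Intervals and the limit of 3 reads cover counting error or the spread between libraries only. Sequence sites were searched in GENCODE M21 3′ UTRs and in RefSeq promoters, where Gipr was not used.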

Additional observations from a re-analysis of the deposited data

Results flagged for a closer look

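For 4 receptors the response to cytokines in OE cells differed from that in Scr cells by the test of the difference itself, at an adjusted p under 0.05 with edgeR's quasi-likelihood model. The difference, OE minus Scr on the log2 scale, was −0.59 for Ffar1, where the within-line changes were −0.41 in OE and 0.18 in Scr. It was 0.57 for Chrm3, with 0.10 in OE and −0.47 in Scr. It was −0.60 for Sstr3, with −0.79 in OE and −0.19 in Scr, and −2.56 for Nmbr, with −2.43 in OE and 0.13 in Scr, where no Scr or Scr+Cy library held more than 10 reads. Such a difference was called for 20% of all genes.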

How the results depend on the processing

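Of 97 member values (each member in each comparison, without Sstr2 between groups at the limit and in differences of responses), 97 kept direction and call with DESeq2 size factors, 97 with a low-count filter, which kept 14535 genes and all 8 members, and 96 with DESeq2. No member was called in ZIP versus Scr, and leaving out 1 library gave 0 to 1, the 1 being Glp1r without ZIP replicate 4. With the replicate block, some adjusted p values came under 0.05 at folds under the limit. Among them were Ffar1 and Sstr3 in ZIP versus Scr (0.0251 and 0.0128), Sstr3 in ZIP+Cy versus ZIP (0.003) and Glp1r in ZIP+Cy versus Scr+Cy (0.00629). The block changed 1 call, the response of Glp1r in OE minus Scr (−0.33), and no other. Fits of the compared groups alone moved that value to −0.35, called, lost that of Nmbr (−2.59) and turned Nmbr in ZIP+Cy versus ZIP to 0.0010. Without the 3 libraries with stroma markers, an alternative chosen after seeing the data, the signs turned for Adra2a in ZIP+Cy versus Scr+Cy (0.0509), Ffar1 in ZIP+Cy versus ZIP (0.0029) and Glp1r in OE versus ZIP (0.0227), none called, and 4 members were called in OE+Cy versus Scr+Cy in place of 5. The calls for Sstr2 in OE+Cy versus OE and versus Scr+Cy were lost at an adjusted p under 0.05, the first also with DESeq2, and Chrm3 lost its difference of responses under the fold limit. The causes were not tested.

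Leaving out 1 library turned signs only among values that were not called. Adra2a in ZIP+Cy versus Scr+Cy ran from −0.12 to 0.0509, Chrm3 in OE+Cy versus OE from −0.0196 to 0.21, Ffar1 in OE versus Scr from −0.0034 to 0.16, Ffar1 in ZIP+Cy versus Scr+Cy from −0.0271 to 0.093 and Ffar1 in ZIP+Cy versus ZIP from −0.12 to 0.0396. Glp1r in OE versus ZIP ran from −0.13 to 0.0273, Nmbr in the response of ZIP minus Scr from −0.85 to 0.14, Nmbr in Scr+Cy versus Scr from −0.18 to 0.81, Nmbr in ZIP+Cy versus ZIP from −0.24 to 0.19, Sstr3 in OE+Cy versus Scr+Cy from −0.11 to 0.0764 and Sstr3 in ZIP+Cy versus Scr from −0.12 to 0.0519. Depth limits Sstr2 and, outside OE cells, Nmbr, whose levels there rest on at most 10 reads in a library. Another scaling moved the median of all genes by under 0.1 in every comparison.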
